A study of Macaca mulatta with 2 samples.

Results

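TRAV12-2+ cytotoxic DP T cells are 327 cells of the 7601 that passed the filters, or 4.30% (95% exact binomial interval 3.86 to 4.78). Each had at least 1 UMI of TRAV12-2, a variable segment of the T cell receptor alpha chain, and at least 3 UMIs of GZMB, the protease granzyme B of cytotoxic granules, and none had a UMI of TRAV19 or TRBV7-3, variable segments that mark other cytotoxic cells in this sample. A UMI, or unique molecular identifier, counts each captured RNA molecule once. The cells were selected on the measured UMIs of these 4 genes, so the values of these genes are a description. The cells were compared with 2468 kept cells that had at least 3 GZMB UMIs and no TRAV12-2 UMI, called GZMB+ TRAV12-2-negative cells.

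The cells came from the blood of 1 untreated, healthy rhesus monkey (Macaca mulatta) aged 6 years. CD4+ cells were taken from blood mononuclear cells with releasable beads (REAlease CD4 MicroBeads), and CD8+ cells were then taken from them with CD8 MicroBeads. The RNA of each droplet was sequenced together with tags of CD4 (clone SK3) and CD8 (clone SK1) antibodies, and 7923 distinct barcodes with 32297887 gene UMIs were deposited. There was 1 animal, with 1 RNA library and 1 tag library of the same cells, and cells are not replicates. No test was therefore possible, and every interval given here covers counting error alone.

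A T cell receptor pairs an alpha and a beta chain, each built in the thymus by joining one variable segment to shorter segments, and all descendants of a T cell carry the same joined genes. Cytotoxic T cells kill target cells by releasing perforin and granzymes from granules, and most of them carry CD8. A smaller number carry CD4, and such cells often have NK cell receptors as well.

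The sequence of the variable exon shows what sets TRAV12-2 apart from its close relative TRAV12-3. Both lie on the + strand of chromosome 7 in the Mmul_10 build, in the alpha/delta receptor locus. In RefSeq, the 12-2-like gene (LOC710093, positions 83774302 to 83775200) and the 12-3-like gene (LOC106999336, positions 83848965 to 83849933) each hold the variable part in exon 2, which is coding. The first 277 and 280 bases of this coding part are given 5′ to 3′, and capitals mark the bases that differ from the other gene or are missing in it. The deposited TRAV12-2 and TRAV12-3 counts were paired with these entries by name alone.
TRAV12-2-like, chr7:83774694-83774970: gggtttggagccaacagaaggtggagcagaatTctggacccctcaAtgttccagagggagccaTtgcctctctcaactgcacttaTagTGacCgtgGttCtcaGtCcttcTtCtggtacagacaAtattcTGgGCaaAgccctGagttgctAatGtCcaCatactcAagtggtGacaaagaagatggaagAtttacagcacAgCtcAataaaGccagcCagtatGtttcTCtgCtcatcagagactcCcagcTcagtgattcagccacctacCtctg
TRAV12-3-like, chr7:83849428-83849707: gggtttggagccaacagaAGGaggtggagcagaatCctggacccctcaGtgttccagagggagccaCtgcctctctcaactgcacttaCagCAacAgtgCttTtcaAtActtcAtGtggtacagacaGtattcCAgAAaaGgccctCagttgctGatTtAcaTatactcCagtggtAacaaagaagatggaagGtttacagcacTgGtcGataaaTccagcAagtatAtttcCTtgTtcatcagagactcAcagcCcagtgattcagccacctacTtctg
Over the whole coding part of exon 2, the 2 genes were identical at 297 of 350 aligned positions (84.9%). TRAV12-2-like was identical to the 12-1-like gene at 85.7% of positions and to the TRAV21-like gene at 61.5%. The sources used here do not state how reads shared by such relatives were counted, so the counts of these segments carry that uncertainty.

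TRAV12-2 was found in 560 of the 7601 kept cells (7.37%, 6.79 to 7.98), and these cells contained GZMB more often than the rest. Of the TRAV12-2+ cells, 351 had at least 3 GZMB UMIs (62.7%, 58.5 to 66.7), against 35.1% (33.9 to 36.2) of 7041 TRAV12-2-negative cells. GZMB was at 0 in 30.5% of TRAV12-2+ cells and in 58.0% of TRAV12-2-negative cells. The share with at least 3 GZMB UMIs was 67.0% of cells with TRAV19 and 84.9% of cells with TRBV7-3. From the 351 cells, 19 were left out for a TRAV19 UMI and 6 for a TRBV7-3 UMI, 24 in all. The remaining 327 cells made up 11.6% (10.4 to 12.8) of the 2819 kept cells with at least 3 GZMB UMIs.

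**Figure D1:**
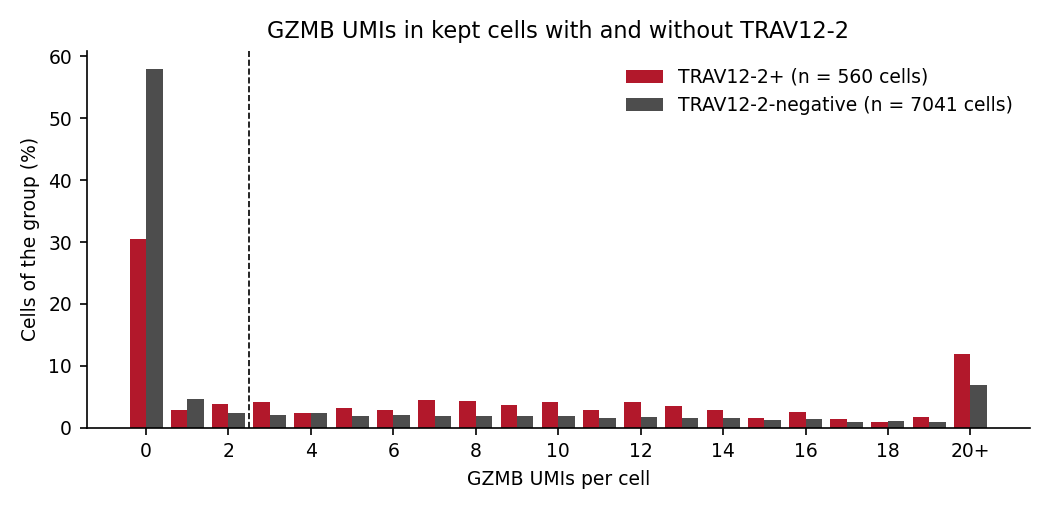
GZMB UMIs per cell (x axis; cells with 20 or more are drawn at the last position) as a percentage of the cells of each group (y axis) in 560 TRAV12-2+ and 7041 TRAV12-2-negative kept cells, with a dashed line at the threshold of 3 UMIs. The bar at 0 is 30.5% in TRAV12-2+ cells and 58.0% in TRAV12-2-negative cells.

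Background was read in 86 B gene cells, which had 3 or more B cell gene UMIs, no CD3 UMI and should lack TRAV12-2 and GZMB. Of these, 0 had a TRAV12-2 UMI, which allows a share of up to 3.49%, while GZMB was found in 7 (8.14%) and reached at least 3 UMIs in 2 (2.33%). These 7 cells held 263 GZMB UMIs, nearly all in the 2 cells with at least 3. The B gene cells were thus at 663 CPM of GZMB, against 3224 CPM in TRAV12-2+ cytotoxic cells. The source of these UMIs was not tested. B gene cells had a median of 4137.5 UMIs, against 3223 in TRAV12-2+ cytotoxic cells. The TRAV12-2+ cytotoxic cells had 1 to 9 TRAV12-2 UMIs, with a median of 3, and 63 of them rested on a single UMI. Their GZMB UMIs ran from 3 to 46 with a median of 11 (quartiles 7 and 17). GZMB+ TRAV12-2-negative cells had 3 to 147, with the same median of 11 (quartiles 7 and 18). At least 10 GZMB UMIs were seen in 59.6% of TRAV12-2+ cytotoxic cells and in 59.5% of GZMB+ TRAV12-2-negative cells, shares that lie within each other's intervals.

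The groups had similar depth. TRAV12-2+ cytotoxic cells held 1285035 gene UMIs. Their median cell had 3223 UMIs, 1289 genes and a mitochondrial share of 3.97%. In GZMB+ TRAV12-2-negative cells the medians were 3305.5 UMIs, 1299 genes and 4.01%. Levels are given as CPM, the UMIs of a gene summed over the cells of a group per 1000000 gene UMIs of that group. Differences are given as the log2 ratio of the CPM of TRAV12-2+ cytotoxic cells over that of GZMB+ TRAV12-2-negative cells with a 95% exact interval, unless another group is named.

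The TRAV12-2+ cytotoxic cells, from a sort for CD4 and CD8 and chosen on GZMB, had RNA of T cells and of a cytotoxic programme. CD3E, a chain of the receptor complex, was found in 98.8% of the TRAV12-2+ cytotoxic cells. NKG7, a granule membrane protein, was found in 99.4% and CST7, an inhibitor of granule proteases, in 96.6%. The shares in GZMB+ TRAV12-2-negative cells were close, at 98.8% and 94.4%. PRF1, the pore-forming perforin, was found in 47.7% of TRAV12-2+ cytotoxic cells (against 37.6%) and GNLY, the membrane-damaging granulysin, in 85.3% (against 61.3%). Of the genes that chose no cell, KLRD1, CTSW, GZMM and PRF1 were found in 0 of the 86 B gene cells, GNLY in 2.33% and CCL5 in 8.14%. Of the 6 NK cell markers listed, 4 had no UMI (NCAM1, NCR1, FCER1G and SH2D1B). The others were present, KLRF1 at 147 CPM and TYROBP at 37.4 CPM.

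Beyond TRAV12-2, the TRAV12-2+ cytotoxic cells shared features that the choice of cells had not used. Among them were features for which the files give an ID and no symbol, so their identity is not known here. The 2 described first had the largest log2 ratios of those found in over 1% of TRAV12-2+ cytotoxic cells. ENSMMUG00000059649 was found in 291 of 327 cells (89.0%, 85.1 to 92.2), with a median of 10 UMIs per cell and a range of 0 to 36, and in 20.3% (18.7 to 21.9) of GZMB+ TRAV12-2-negative cells. Its level was 2667 CPM against 150 CPM, a log2 ratio of 4.15 (4.06 to 4.24). ENSMMUG00000049629 was found in 261 cells (79.8%) with a median of 2 UMIs, against 11.5% of GZMB+ TRAV12-2-negative cells, and its log2 ratio was 2.62 (2.49 to 2.76). After each cell was thinned to 2000 UMIs, which removes differences in depth, the shares were 85.0% against 14.7% for ENSMMUG00000059649 and 68.5% against 9.78% for ENSMMUG00000049629. In the 86 B gene cells the former was found in 1.16% and the latter in none.

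Both features were present together in 257 TRAV12-2+ cytotoxic cells (78.6%, 73.7 to 82.9) and in 85 GZMB+ TRAV12-2-negative cells (3.44%, 2.76 to 4.24). Among cells with ENSMMUG00000059649, ENSMMUG00000049629 was found in 88.3% of the TRAV12-2+ cytotoxic cells but in 17.0% of the GZMB+ TRAV12-2-negative cells. The pair was seen in 0.808% of TRAV19+ cytotoxic cells and in 0 of 260 TRBV7-3+ cytotoxic cells, which allows a share of up to 1.15%. It was seen in 13.7% of the 204 TRAV12-2+ cells with 0 to 2 GZMB UMIs and no UMI of TRAV19 or TRBV7-3. The share was thus low in cells with GZMB and no TRAV12-2, somewhat higher in cells with TRAV12-2 and little GZMB, and highest in cells with both. The share with the pair was 74.6% at 1 TRAV12-2 UMI, 78.8% at 2, 78.2% at 3 and 81.1% at 4 or more, and the intervals of these shares overlapped. Taken singly, ENSMMUG00000059649 was found in 6.26% of TRAV19+ and 29.6% of TRBV7-3+ cytotoxic cells. It was found in 22.9% of GZMB+ cells without TRAV12-2, TRAV19 and TRBV7-3, and in 29.9% of the 204 TRAV12-2+ cells. The shares of ENSMMUG00000049629 in these groups were 2.63%, 1.15%, 15.6% and 14.2%, in that order.

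Another 3 features without a symbol were also more frequent in TRAV12-2+ cytotoxic cells, at 80.7% against 12.1%, 51.4% against 14.9% and 38.5% against 11.95% of cells. In the opposite direction, ENSMMUG00000056515 was found in 4.28% of TRAV12-2+ cytotoxic cells and in 30.8% of GZMB+ TRAV12-2-negative cells, with a log2 ratio of -4.37 (-4.83 to -3.94). ENSMMUG00000062974 was found in no TRAV12-2+ cytotoxic cell and in 16.05% of GZMB+ TRAV12-2-negative cells. Whether any of these features belongs to a T cell receptor gene was not tested.

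Among the named alpha chain segments, TRAV21 was more frequent in TRAV12-2+ cytotoxic cells, and TRAV12-3 and TRAV36DV7 were rarer. The GZMB+ TRAV12-2-negative cells lack TRAV12-2 by choice and so use other alpha chain segments. Lower shares of other segments in TRAV12-2+ cytotoxic cells therefore follow in part from the choice of cells. TRAV21 was found in 84 TRAV12-2+ cytotoxic cells (25.7%) and in 98 GZMB+ TRAV12-2-negative cells (3.97%). The 84 cells held 118 TRAV21 UMIs and the 98 cells held 448, so the log2 ratio of the level was smaller, at 0.96 (0.65 to 1.25). Of the TRAV12-2+ cytotoxic cells with TRAV21, 89.3% (80.6 to 94.98) had the pair of features without a symbol, against 74.9% (69.0 to 80.2) of those without TRAV21. In GZMB+ TRAV12-2-negative cells with TRAV21, the share was 8.16%. TRAV12-3, the relative whose sequence is given above, was found in 5 TRAV12-2+ cytotoxic cells (1.53%) and in 14.8% of GZMB+ TRAV12-2-negative cells, with a log2 ratio of -3.45 (-4.29 to -2.72). TRAV36DV7 was found in 2 TRAV12-2+ cytotoxic cells (0.612%) against 9.24%.

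Counting all other named TRAV segments, 65.7% of TRAV12-2+ cytotoxic cells had none, 31.5% had 1 and 2.75% had 2 or more. The shares in GZMB+ TRAV12-2-negative cells were 50.2%, 30.6% and 19.2%, counted over all named TRAV segments, including the TRAV19 that TRAV12-2+ cytotoxic cells lack by choice. Since each group was also chosen on TRAV12-2, this difference is in part set by the choice.

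Named beta chain segments were scarce. No named TRBV segment was found in 260 of the 327 cells (79.5%, 74.7 to 83.8), against 52.0% (50.03 to 54.0) of GZMB+ TRAV12-2-negative cells. The share was 53.9% in the 204 TRAV12-2+ cells with 0 to 2 GZMB UMIs. TRBV7-3, one of the 21 named TRBV segments, was absent by choice from TRAV12-2+ cytotoxic cells and from these 204 cells. It was present in 10.7% of GZMB+ TRAV12-2-negative cells. The most frequent named segment was TRBV9, in 23 cells (7.03%, 4.51 to 10.4) against 3.69%, followed by TRBV11-1 in 19 cells (5.81% against 7.13%). TRBV27 was found in 2.14% against 6.12%, TRBV23-1 in 1.53% against 4.98% and TRBV28 in 1.22% against 4.29%. Among TRAV12-2+ cytotoxic cells with ENSMMUG00000059649, 85.9% had no named TRBV segment, and among the 36 without it, 27.8% (10 cells). In GZMB+ TRAV12-2-negative cells the order was the other way round, at 31.1% with ENSMMUG00000059649 and 57.3% without it. Whether the TRAV12-2+ cytotoxic cells descend from 1 clone was not tested, since the joined receptor sequences were not analysed here.

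**Figure D2:**
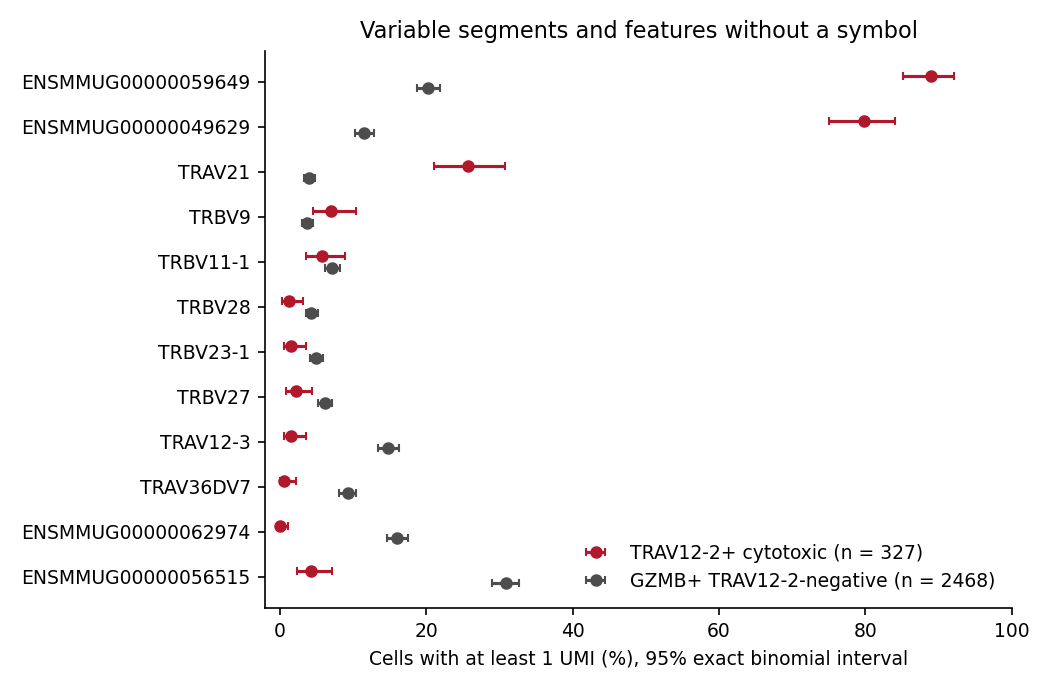
Share of cells with at least 1 UMI (x axis, %, with 95% exact binomial intervals) of 8 named variable segments and 4 features without a symbol (y axis) in 327 TRAV12-2+ cytotoxic cells (red) and 2468 GZMB+ TRAV12-2-negative cells (grey). The upper 2 features drawn lie at 89.0% and 79.8% in TRAV12-2+ cytotoxic cells (a feature at 80.7% is not drawn), while no named TRBV segment passes 7.03% in them.

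Across the transcriptome the groups were close. Of 2418 genes whose 2 CPM values averaged at least 50, leaving out the 4 that chose the cells, 20 (0.827%) were at least 1.5-fold higher in TRAV12-2+ cytotoxic cells and 25 (1.03%) at least 1.5-fold lower, 45 (1.86%) in all. The median log2 ratio of these genes was -0.01. Of the 85 tested features without a symbol, 7 were higher and 3 lower. Ribosomal protein genes, 78 of them tested, and 8 mitochondrial genes had none past this fold in either direction.

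**Figure D3:**
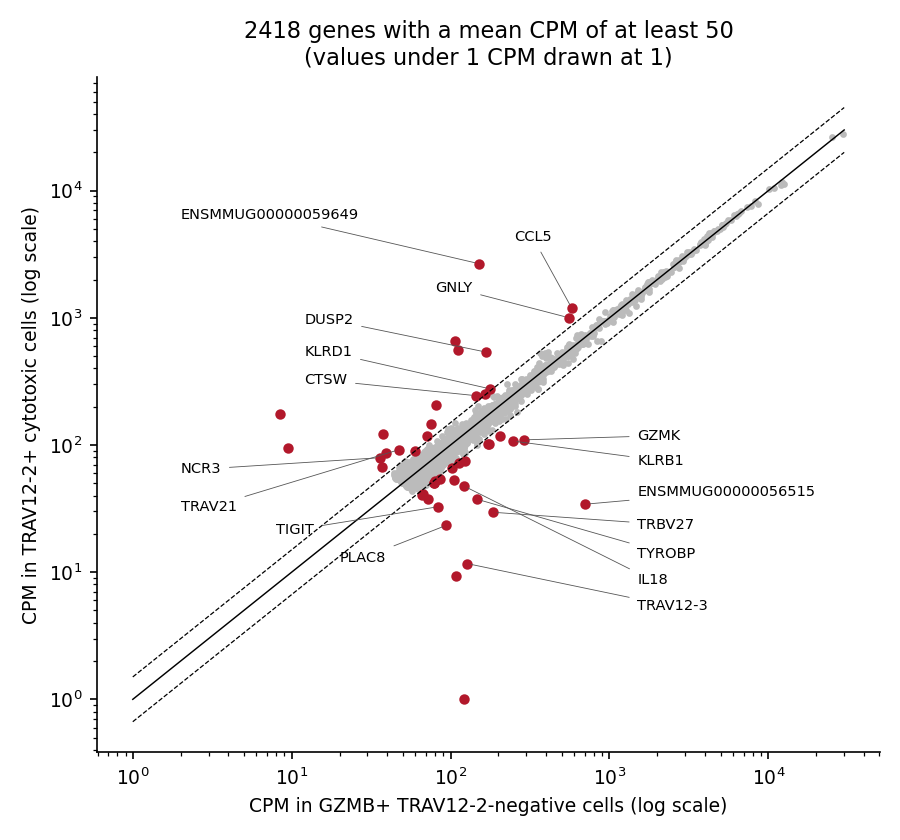
Level of each of 2418 genes in TRAV12-2+ cytotoxic cells (y axis, CPM, log scale) against GZMB+ TRAV12-2-negative cells (x axis, CPM, log scale). The solid line marks equal levels and the dashed lines a 1.5-fold difference, and the 20 higher and 25 lower genes past it are drawn in red.

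Granule genes were among those higher in TRAV12-2+ cytotoxic cells. Of the 9 granule genes tested beside GZMB, 3 were past 1.5-fold higher and 1 lower, with a median log2 ratio of 0.14. GNLY, on chromosome 13 (22778040 to 22782836, - strand, Mmul_10), was at 1003 CPM against 553 CPM, a log2 ratio of 0.86 (0.77 to 0.95), and was found in 85.3% against 61.3% of cells. CTSW, the cysteine protease cathepsin W of cytotoxic cells, was at 244 against 144 CPM (0.77, 0.58 to 0.94). GZMM, granzyme M, was at 250 against 164 CPM (0.61, 0.43 to 0.78). PRF1 was at 203 against 150 CPM (0.44, 0.24 to 0.63), below the fold. NKG7 (0.09) and CST7 (0.14) were at nearly equal levels in both groups. The granule gene on the lower side was GZMK, a granzyme typical of memory T cells, at 110 against 291 CPM (-1.41, -1.66 to -1.16) and in 13.1% against 26.4% of cells.

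CCL5, a chemokine that attracts T cells and monocytes, was the one of 3 tested secreted effector genes past the fold, beside CCL4L1 (-0.22) and LTB (-0.06), and the list median was -0.06. The gene lies on chromosome 16 (32220376 to 32229833, - strand, Mmul_10). CCL5 was at 1189 against 579 CPM (1.04, 0.95 to 1.12) and in 82.0% against 56.8% of cells. Other secreted effectors were sparse. IFNG was found in 20 TRAV12-2+ cytotoxic cells (6.12%, against 4.98%), and TNF in 9 cells (2.75%, against 1.74%).

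Receptors shared with NK cells went in both directions. Of 8 tested, 2 were higher and 2 lower, with a median log2 ratio of 0.04. KLRD1, or CD94, which pairs with NKG2 receptors to read MHC-E, was at 276 against 177 CPM (0.64, 0.47 to 0.81). NCR3, the activating receptor NKp30, was at 79.4 against 35.7 CPM (1.15, 0.82 to 1.48) and in 27.8% against 11.3% of cells, and in 3.49% of the 86 B gene cells. The gene lies on chromosome 4 (137919086 to 137923382, + strand, Mmul_10). TYROBP, or DAP12, the signalling adaptor of several activating receptors, was at 37.4 against 148 CPM (-1.98, -2.43 to -1.57). It was found in 8.87% of TRAV12-2+ cytotoxic cells, 23.2% of GZMB+ TRAV12-2-negative cells and 33.7% of B gene cells. The B gene cells had TYROBP at 239 CPM, above the 106 CPM of all kept cells, so they give no background level for it. KLRB1, or CD161, was at 107 against 247 CPM (-1.20, -1.46 to -0.95). NKG2D (0.09), KLRG1 (0.10), KLRF1 (-0.20) and HCST (-0.01), the adaptor of NKG2D, were near equal. FCER1G, another adaptor, had no UMI in TRAV12-2+ cytotoxic cells and 81 UMIs in 19 GZMB+ TRAV12-2-negative cells, too few for a firm statement at this depth.

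TIGIT and PDCD1, inhibitory receptors, had ratios below 0. TIGIT was at 32.7 against 83.4 CPM (-1.35, -1.84 to -0.90) and was the one of 5 tested checkpoint and costimulatory genes past the fold, with a list median of -0.14. A TIGIT UMI was found in 10.1% of TRAV12-2+ cytotoxic cells, 24.3% of GZMB+ TRAV12-2-negative cells and 16.3% of the 86 B gene cells. The B gene cells had TIGIT at 73.1 CPM, near the 68.3 CPM of all kept cells, so they give no background level for it. PDCD1, or PD-1, was at 181 against 263 CPM (-0.54, -0.74 to -0.34). IL18, a cytokine of the IL-1 family, was at 47.5 against 122 CPM (-1.36, -1.76 to -0.99), and 0 of the 86 B gene cells had it. PLAC8 (-2.01, -2.59 to -1.49), the histone gene H1-4 (-0.99) and SLAMF1 (-0.94), a costimulatory receptor not among those 5 genes, were also lower.

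Genes of homing and of the effector programme differed little. ADGRG1, or GPR56, an adhesion receptor of cytotoxic cells, was the one of 10 tested migration genes past the fold, at 90.3 against 59.9 CPM (0.59, 0.29 to 0.88). It lies just past the fold and was past it in 12 of 15 alternatives, with a lowest value of 0.52. CX3CR1, the fractalkine receptor, was at 128 against 174 CPM (-0.44, -0.68 to -0.20), and SELPLG, the P-selectin ligand, was at -0.49. The list median was -0.11. None of 10 effector transcription factors was past the fold, with a median of 0.17. RUNX3, which directs the CD8 lineage and cytotoxicity, was at 0.39, ID2 at 0.23, ZEB2 at 0.21 and TBX21, or T-bet, at -0.15. None of the 2 tested genes of naive and memory cells (IL7R, -0.24; CD7, -0.02) and none of 11 tested cytoskeleton and S100 genes was past it.

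Among the 16 tested genes of the receptor complex and its signalling, 1 was past the fold, the immediate-early gene EGR1, and the median was -0.03. CD6 (0.41, 0.28 to 0.53), and CD5 (0.42, 0.22 to 0.62) from the coreceptor list, both of which dampen receptor signals, were higher by less than the fold. CD247, the zeta chain, was at -0.46 and LAT, an adaptor, at -0.31. CD3D, CD3E, LCK and ZAP70 were within 0.08 of equal levels on the log2 scale.

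The high values of EGR1 and of DUSP2, a phosphatase induced on activation, came from few cells. DUSP2 was at 538 against 167 CPM (1.69), but was found in 17.7% of TRAV12-2+ cytotoxic cells and 18.3% of GZMB+ TRAV12-2-negative cells. The 4 highest cells had 214, 136, 126 and 120 DUSP2 UMIs, or 86.3% of all in the group. At least 3 UMIs of B cell genes were seen in 6 TRAV12-2+ cytotoxic cells (1.83%, 0.676 to 3.95), which had a median of 12716 UMIs and held 87.4% of the DUSP2, 87.5% of the EGR1 and 65.2% of the MAMU-DRA UMIs. GZMB+ TRAV12-2-negative cells included 27 such cells (1.09%) with a median of 8256 UMIs. Without these cells the log2 ratio was 0.07 for DUSP2 and 0.22 for EGR1, while it was 0.92 for GNLY, 1.08 for CCL5 and 4.21 for ENSMMUG00000059649. Without them, 16 genes were at least 1.5-fold higher and 29 at least 1.5-fold lower. A pair of features without a symbol, with log2 ratios of 4.37 and 3.31, had all of their UMIs in TRAV12-2+ cytotoxic cells in these 6 cells.

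Of the summed markers of other cell types, those of B cells were higher in TRAV12-2+ cytotoxic cells, and the rest were lower or near equal. The 6 B cell genes summed to 143 CPM against 52.4 CPM, led by CD79B at 49.0 CPM and with 170 of their 184 UMIs in the 6 cells named above. The 8 monocyte genes summed to 2.33 against 13.4 CPM with 6 of them at 0, among them FCN1, S100A8 and S100A9, and the highest was LYZ at 1.56 CPM. The NK cell list summed to 184 against 327 CPM, with 4 of 6 genes at 0. Platelet genes were at 1.56 against 1.37 CPM with 4 of 5 at 0. The gamma delta list had 2 measured genes and was at 0.778 against 24.2 CPM, with TRGV9 at 0. Red blood cell RNA (HBA) was at 111 against 106 CPM, plasmacytoid dendritic cell genes at 31.1 against 44.4 CPM, led by IRF7, and cycling genes at 234 against 275 CPM, led by STMN1. Treg genes were at 12.5 against 15.1 CPM with FOXP3 at 0. In separate alternatives, cells with 3 or more B gene UMIs and cells with the highest 5% of doublet scores were left out. The part that RNA of other cells has in the results was tested no further.

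The sort had asked for both coreceptors, and the antibody tags were read for the same cells. The CD4 tag had a median of 287 UMIs per cell (quartiles 235.5 and 369.5, range 82 to 19285) in TRAV12-2+ cytotoxic cells and 319 (252 and 427.25) in GZMB+ TRAV12-2-negative cells, a log2 ratio of medians of -0.15. The CD8 tag had a median of 425 (299.5 and 612) against 339 (214 and 531), a log2 ratio of 0.33. The quartile ranges overlapped for both tags. In the B gene cells, which should lack both proteins, the medians were 90 and 139.5. The RNA ratios had the same signs as those of the tags. CD4 was at 183 against 201 CPM (-0.14, -0.34 to 0.06), an interval that includes equal levels. CD8A was at 244 against 195 CPM (0.33, 0.15 to 0.50). Neither was past the fold, nor was any of the 4 tested genes of the coreceptor list, whose median was 0.22.

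**Figure D4:**
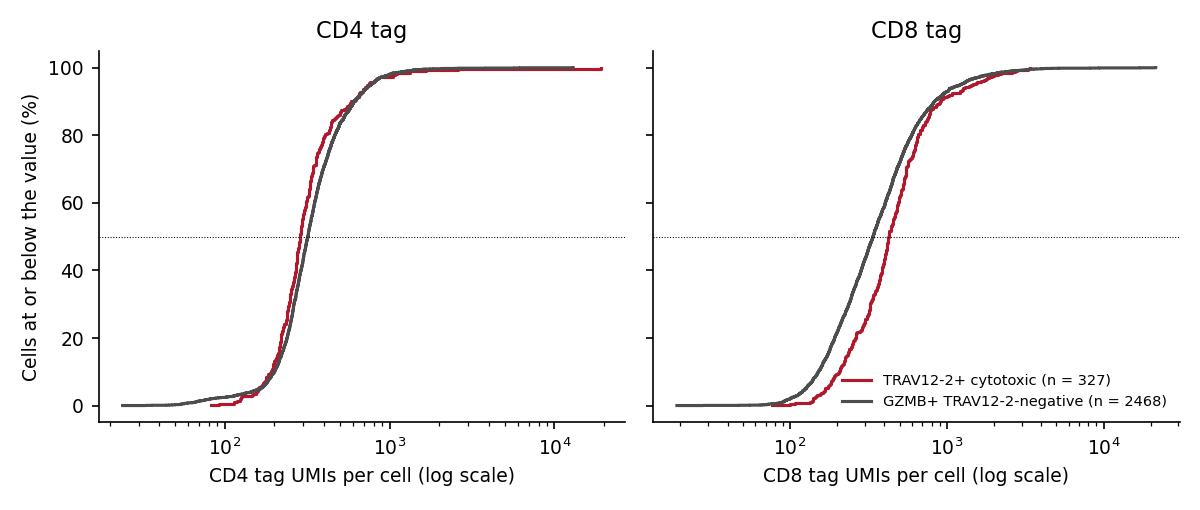
Cumulative share of cells (y axis, %) at or below each number of CD4 or CD8 tag UMIs per cell (x axis, log scale) in 327 TRAV12-2+ cytotoxic and 2468 GZMB+ TRAV12-2-negative cells, with a dotted line at the median. The medians are 287 against 319 for CD4 and 425 against 339 for CD8, and the curves overlap over most of their range.

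The GZMB+ TRAV12-2-negative cells include the TRAV19+ (495 cells) and TRBV7-3+ (260 cells) cytotoxic cells, so TRAV12-2+ cytotoxic cells were set beside each of these and beside the 1710 GZMB+ cells with none of the 3 segments. GNLY was higher in TRAV12-2+ cytotoxic cells than in all 3 groups, with log2 ratios of 1.09 (0.96 to 1.21), 1.38 (1.21 to 1.56) and 0.74 (0.65 to 0.83) in that order. For CCL5 they were 1.57 (1.45 to 1.70), 0.60 (0.47 to 0.74) and 0.97 (0.88 to 1.06). NCR3 was at 1.34, 1.19 and 1.09, and CTSW at 1.40, 2.22 and 0.51. TYROBP (-1.62, -1.55 and -2.13), TIGIT (-1.33, -1.20 and -1.37) and IL18 (-1.55, -1.58 and -1.26) were lower than in each.

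Other differences depended on the group. KLRD1 was at 276 CPM in TRAV12-2+ cytotoxic cells, above 77.0 CPM in TRAV19+ cells (1.84, 1.57 to 2.13) but below 576 CPM in TRBV7-3+ cells (-1.06, -1.26 to -0.86). ADGRG1 showed the same order, with log2 ratios of 0.66 (0.28 to 1.05) and -0.65 (-1.03 to -0.28). The lower GZMK came from the cells with none of the 3 segments (-1.71, -1.97 to -1.47), as the ratios to TRAV19+ cells (-0.27, -0.58 to 0.03) and TRBV7-3+ cells (-0.38, -0.74 to -0.03) were small. KLRB1 was lower than in TRAV19+ cells (-0.93) and higher than in TRBV7-3+ cells (0.70, 0.25 to 1.17). PDCD1 was level with TRAV19+ cells (-0.01, -0.25 to 0.23) and lower than in TRBV7-3+ cells (-1.11, -1.35 to -0.86). The CD8 tag median of 425 was near that of TRAV19+ cells (404) and above that of TRBV7-3+ cells (200). The CD4 tag medians were 287, 300 and 298. In the cells with none of the 3 segments, the medians were 347 for CD8 and 329 for CD4.

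**Figure D5:**
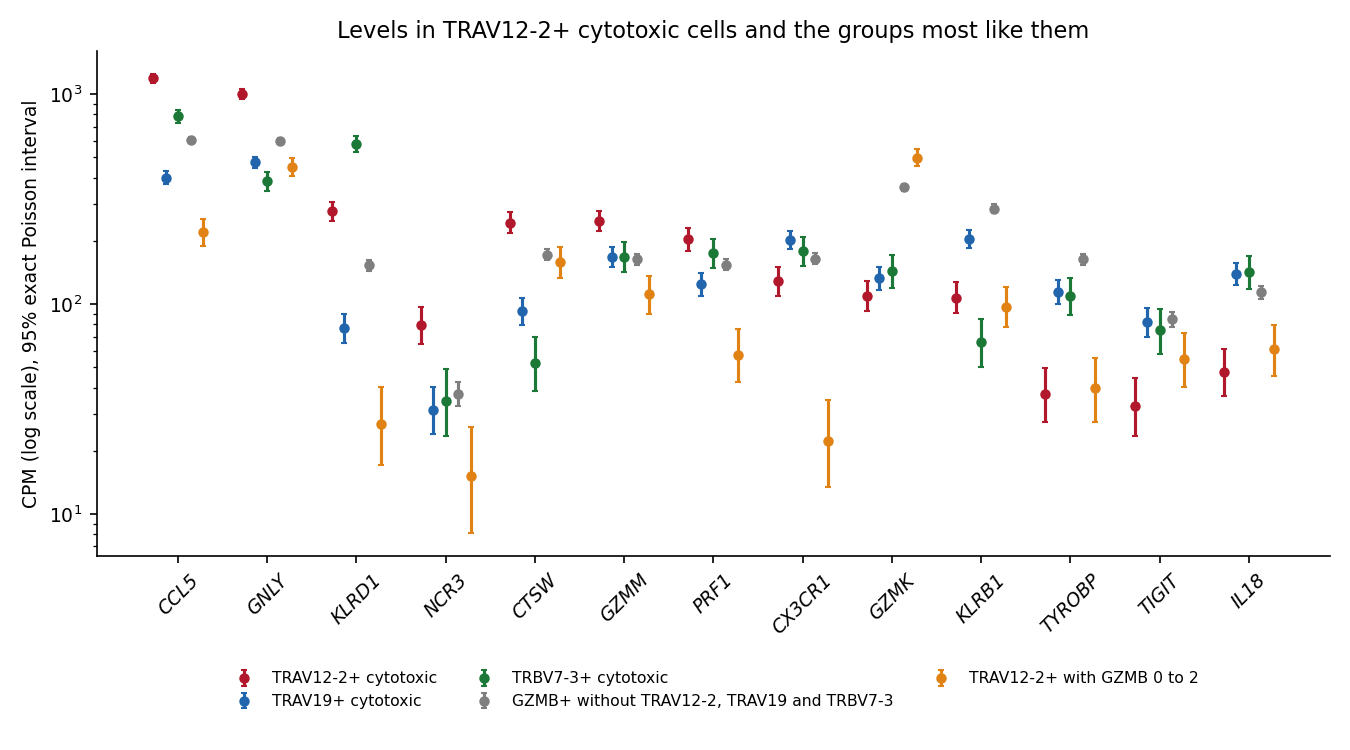
Level of 13 genes (x axis) in TRAV12-2+ cytotoxic cells and 4 groups of like cells (y axis, CPM, log scale), with 95% exact Poisson intervals. CCL5, GNLY, NCR3 and CTSW are highest in the TRAV12-2+ cytotoxic cells. TIGIT, TYROBP and IL18 are lowest in them, with intervals that overlap those of TRAV12-2+ cells with 0 to 2 GZMB UMIs.

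TRAV12-2+ cells with little GZMB had other levels of several of these genes. These were the 204 TRAV12-2+ cells with 0 to 2 GZMB UMIs and no UMI of TRAV19 or TRBV7-3. Of these cells, 167 had no GZMB UMI, and the median of the 204 was 3644 UMIs. Compared with them, TRAV12-2+ cytotoxic cells had log2 ratios of 2.43 (2.21 to 2.66) for CCL5, 3.36 (2.75 to 4.04) for KLRD1, 2.53 (1.84 to 3.30) for CX3CR1, 2.01 (1.86 to 2.16) for NKG7 and 1.15 (0.99 to 1.32) for GNLY. On the other side, GZMK was at -2.18 (-2.47 to -1.91), IL7R, the receptor of the survival cytokine IL-7, at -1.14 (-1.28 to -1.01), CCR7, the receptor for lymph node homing, at -1.77 (-2.29 to -1.27), and EOMES, a transcription factor of memory cells, at -2.91 (-4.33 to -1.72). TYROBP (-0.09, -0.75 to 0.59), KLRB1 (0.15, -0.26 to 0.56) and IL18 (-0.36, -0.92 to 0.20) had intervals that included equal levels. GZMB separated these groups by choice, so genes that vary with GZMB across cells would also differ between them. The same contrast was not made in TRAV12-2-negative cells, so whether these differences are particular to TRAV12-2+ cells was not tested. Just inside the threshold, the 22 TRAV12-2+ cytotoxic cells with 3 GZMB UMIs had the pair of features without a symbol in 63.6%, GNLY at 969 CPM and CCL5 at 1120 CPM, and the 13 with 4 GZMB UMIs had it in 76.9%, with GNLY at 1203 CPM and CCL5 at 532 CPM. Just outside it, the 22 of the 204 cells with 2 GZMB UMIs had the pair in 59.1%, GNLY at 834 CPM and CCL5 at 1177 CPM. The 15 of the 204 with 1 GZMB UMI had the pair in 26.7%, GNLY at 913 CPM and CCL5 at 57.1 CPM.

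The TRAV12-2+ cytotoxic cells were not uniform. The 257 cells with the pair of features were set against the 70 without it. The choice of cells had not used the pair. It had, however, been picked for its high ratios over GZMB+ TRAV12-2-negative cells in these same data. The split is thus a description and no separate support for the differences above. CCL5 was at 1363 CPM in the former and 617 CPM in the latter (1.14, 0.92 to 1.37), KLRD1 at 320 and 133 CPM (1.26, 0.78 to 1.77) and ADGRG1 at 107 and 36.7 CPM (1.54, 0.64 to 2.58). NCR3 was at 1.19 (0.31 to 2.19) and GNLY at 0.54 (0.33 to 0.75). GZMB, one of the genes that chose the cells, was at 3441 and 2509 CPM (0.46, 0.34 to 0.57). NKG7 was at 0.50 (0.36 to 0.65) and CST7 at 0.38 (0.19 to 0.57). GZMK was at 80.2 and 207 CPM (-1.37, -1.87 to -0.86), TIGIT at -1.30 (-2.24 to -0.33), IL18 at -1.29 (-2.06 to -0.50), CCR7 at -1.35 (-2.23 to -0.46) and IL7R at -0.79 (-1.01 to -0.58). TYROBP (-0.13, -1.11 to 0.95), CTSW (-0.10, -0.47 to 0.29) and CX3CR1 (0.02, -0.51 to 0.59) had intervals that included equal levels. The median CD4 tag was 276 UMIs in cells with the pair and 337 in cells without it, and the median CD8 tag was 431 and 382.5 UMIs.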

How the data were processed

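Cells of 1 rhesus monkey were read as an RNA and a tag library from the same droplets. The authors deposited raw, unnormalized UMI counts of each gene and tag in every barcode. Per the labels, Cell Ranger 3.1.0, STAR 2.5.1b and Mmul_10 were used. They also used Seurat 3.1.3. The sources used here do not state the annotation release. Kept barcodes had 200 to 4000 genes and a mitochondrial share of no more than 20%, from 13 named genes and 2 features without a symbol. Kept cells held 31007499 UMIs with a median of 3636. Of 35432 gene features, 23817 had a symbol in the files and a table of gene names added 720. TRAV12-2 and its comparison cells were chosen on raw UMIs.

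UMIs were summed over the cells of a group and scaled to CPM. The 95% intervals are exact binomial (Clopper-Pearson) for shares, exact Poisson for CPM, and exact binomial on the split of both counts for log2 ratios, and a count of 0 was replaced by 3 counts. No test was made. Shares at equal depth used cells thinned to 2000 UMIs, which left 314 of 327 TRAV12-2+ cytotoxic and 2351 of 2468 comparison cells. Scrublet, at an expected 6% of doublets, marked 0 cells by its own threshold and so did not work here. No cell was removed for it. The highest 5% of scores included 30 (9.17%) of the TRAV12-2+ cytotoxic and 184 (7.46%) of the comparison cells. Biopython 1.88, matplotlib 3.10.9, scanpy 1.11.5, pandas 2.3.3, scipy 1.17.1 and numpy 2.4.6 ran in Python 3.11.15, and the computation was tested on simulated data. Named genes are those of 23 lists (207 genes, 186 of them features), all named variable segments, and the 15 highest and 15 lowest ratios. The members and lists were chosen with earlier results of these data known. Lists not described above are Eomes Tr1 (1 tested, lower, GZMK), PLZF innate (1 tested, lower, KLRB1), CTL (3 tested beside GZMB, 1 higher, ADGRG1) and MHC class II and activation (4 tested, none past the fold, median 0.04).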

Additional observations from a re-analysis of the deposited data

How the results depend on the processing

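Depth is a limit of these data, since the median cell had 3223 UMIs and 63 cells rested on 1 TRAV12-2 UMI. With 1 animal, the spread between animals is unknown. No paired analysis was possible because there was 1 sample. The log2 ratios of CCL5 (0.97 to 1.17), GNLY (0.74 to 1.07), NCR3 (0.97 to 1.47), TYROBP (-2.48 to -1.74), TIGIT (-1.72 to -1.06), IL18 (-1.70 to -1.20), GZMK (-1.89 to -1.22) and KLRB1 (-1.41 to -0.98) stayed past 1.5-fold under all 15 alternatives, those of KLRD1 and CTSW under 14 (lowest 0.55 and 0.51), GZMM under 13 (0.55) and ADGRG1 under 12 (0.52). TRAV21 ranged from 0.51 to 2.76 and TRBV9 from 0.52 to 2.56.

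The share of TRAV12-2+ cells with GZMB was 69.5% at 1 or more GZMB UMIs and 53.0% at 6 or more. With at least 2 TRAV12-2 UMIs, TRAV12-2+ cytotoxic cells were 9.37% of the GZMB+ cells. Thinned to 2000 UMIs, 66.6% had both features without a symbol, and 31 genes were higher and 46 lower. A mean of at least 20 CPM gave 69 higher and 103 lower genes, a mean of at least 100 CPM gave 11 and 7, and a 2-fold threshold gave 11 and 11. Each gene without its highest 2% of cells, an alternative chosen after seeing the data, as were leaving out cells with 3 or more B gene UMIs and cells with ZBTB16, TRAV10 or EOMES, gave 42 lower genes. Among the named genes averaging at least 50 CPM, no ratio past the fold changed direction in these alternatives. Below that level, EOMES (-1.48) went to 2.82 without the cells that had it, and ZBTB16 (-1.56) and LAG3 (-0.76) went to 2.88 and 0.38 without their highest 2% of cells. No UMI was then left in TRAV12-2+ cytotoxic cells, so the replaced count of 0 sets these values.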
